A study of Mus musculus with 12 samples.

Results

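The genes that cut, carry and display peptides for major histocompatibility complex (MHC) class I were followed in mouse intestinal stem cells (ISCs) with age. The 10 genes, chosen by name from the count table of 54232 genes, were the heavy chains H2-K1 and H2-D1, their light chain B2m, the peptide transporter genes Tap1 and Tap2, the loading factor Tapbp, the immunoproteasome subunits Psmb8, Psmb9 and Psmb10, and the class I regulator Nlrc5. All 10 passed the filter on low counts, Nlrc5 through 1 library only and Tap2 through 4. Tapbp was the member called for age, on average over both isolations and in neither alone: young and old libraries were apart in each, with old the lower, and the call was lost in 5 of 12 fits without 1 library. Leaving Nlrc5 aside, which was too thinly counted for a fold change, the age value of the other 8 members was above 0 in SM6 and below 0 in Lgr5-GFP, and no single member passed the test for that difference. Leaving out 1 library turned the sign of Psmb10 in SM6 and of Psmb8 and Psmb9 in Lgr5-GFP.

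The cells came from the small intestine of untreated mice, 2 months (young) or 22 months (old) of age, with 1 mouse per library, and their polyA RNA was read by 3′ sequencing. The 12 libraries form 4 groups of 3, namely SM6 young, SM6 old, Lgr5-GFP young and Lgr5-GFP old. SM6 mice were wild-type (WT) C57/Bl6. Lgr5-GFP mice carried Lgr5-EGFP-IRES-CreERT as the labels spell it (Lgr5-EGFP-IRES-CreERT2 in the study's methods), a fluorescent reporter with an inducible recombinase placed in the stem cell gene Lgr5. All mice were female by the study's methods, and no sample label names a treatment or an induction of the recombinase. Strain, reporter and isolation change together and cannot be told apart, and the sources used here give no MHC haplotype for the reporter mice. Class I heavy chain genes vary between haplotypes and reads were aligned to the C57BL/6 reference, so a difference in H2-K1 or H2-D1 between the isolations and a difference in how well their reads align cannot be told apart. The sort protocol in the labels gives the SM6 surface markers, with exclusion of CD45+ and CD31+ cells, for every library, while a supplementary legend has the reporter mice sorted by fluorescence.

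Class I molecules show fragments of a cell's own proteins on its surface to cytotoxic T cells. The proteasome cuts proteins, the transporter made of Tap1 and Tap2 moves the fragments into the endoplasmic reticulum, tapasin (Tapbp) holds the empty heavy chain at the transporter, and the loaded heavy chain leaves with B2m. Interferon gamma replaces the constitutive catalytic subunits of the proteasome by Psmb8, Psmb9 and Psmb10 and raises most genes of the pathway. Intestinal epithelial cells carry class I and, under interferon, also class II.

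The libraries held between 970472 and 3815425 counts (median 1424340). All 12 stem cell markers examined were detected, Lgr5 at 217 to 356 CPM (counts scaled to a common library total) in each library. Of 27 immune cell markers, 21 had a count in at least 1 library, and 11 had at most 3 counts in all 12 libraries together. Those 11 include 6 that were at 0 throughout, among them Cd4, Cd79a, Itgax, Adgre1 and Coro1a. In each pair of replicates of a group, the counts were further apart than sampling alone gives.

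On GRCm38, with GENCODE vM21 gene models, 7 of the 10 members lie in the MHC of chromosome 17. In order along the chromosome these are Tapbp (ENSMUSG00000024308, chr17:33915899-33929292, plus strand), H2-K1 (ENSMUSG00000061232, chr17:33996017-34000347, minus), Psmb9 (ENSMUSG00000096727, chr17:34181987-34187764, minus), Tap1 (ENSMUSG00000037321, chr17:34187553-34197225, plus), Psmb8 (ENSMUSG00000024338, chr17:34197721-34201454, plus), Tap2 (ENSMUSG00000024339, chr17:34203527-34216321, plus) and H2-D1 (ENSMUSG00000073411, chr17:35262730-35267499, plus). Psmb9 and Tap1 start head to head and overlap by 212 bases at their 5′ ends, Psmb8 begins after a gap of 495 bases and Tap2 after a further 2072. B2m (ENSMUSG00000060802, chr2:122147686-122153083, plus), Psmb10 (ENSMUSG00000031897, chr8:105935735-105938444, minus) and Nlrc5 (ENSMUSG00000074151, chr8:94434356-94527272, plus) lie elsewhere. None of the 429 stretches of 72 bases, the read length, in the last 500 bases of each member's longest coding transcript was shared with another gene's transcripts. Tapbp shares 149 exonic bases with Zbtb22 on the same strand, which had 120 counts in all 12 libraries.

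The promoters of the members were searched for the control elements for which the pathway is known, and a few stretches are shown because they hold these letters in members described by level and age, whether called or not. RefSeq windows of 250 bases before to 50 after a start (GRCm38.p6) were found for 8 members, 9 windows in all, and were searched on both strands. The motif searched is in capitals, each stretch is 30 bases and is written on the strand of its gene. The first pair holds TGACGC, the core of the cyclic AMP response element type to which class I promoters bind activators, and H2-K1 and H2-D1 were the members with it:
H2-K1: tccggacactgtTGACGCgcagtcagctct
H2-D1: ccgggacactgaTGACGCgctggcaggtct
They lie at chr17:34000371-34000400 (minus) and chr17:35262981-35263010 (plus), and 7.4% of all 32851 windows hold these letters. The next pair holds a match to the kappa B pattern with the same 10 bases in both heavy chain genes, at chr17:34000439-34000468 (minus) and chr17:35262913-35262942 (plus), where the pattern also matches again 1 base further on:
H2-K1: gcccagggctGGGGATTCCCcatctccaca
H2-D1: gcccagggctGGGGATTCCCcatctcctca
Kappa B patterns were found in 5 members and in 50.8% of all windows. The windows of Psmb9 and Tap1 overlap and their kappa B matches are the same stretches, so these members are not separate occurrences. The pair after these are the 2 interferon patterns found, the interferon-stimulated response element core in B2m (chr2:122147538-122147567, plus, motif at -139 to -130 from the start) and the gamma-activated site TTCNNNGAA in Psmb8 (chr17:34198088-34198117, plus, motif at -97 to -89):
B2m: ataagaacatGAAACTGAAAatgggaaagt
Psmb8: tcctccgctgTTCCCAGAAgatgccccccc
Each was found in 1 member, against 3.44% of all windows for the first and 8.3% for the second. CCAAT boxes, of which Psmb9 and Tap1 share the same one, were found in 6 members and in 37.4% of windows. In Tapbp, the member called for age, they were the motif found, on the opposite strand (so read here as ATTGG), at chr17:33919301-33919330 (plus) and once further upstream, and its RefSeq start lies inside the GENCODE gene:
Tapbp: attaaaatatttATTGGtcacttcacttgg
These matches are letters only, and binding was not measured. Windows for Tap2 and Nlrc5 were not used.

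**Figure D1:**
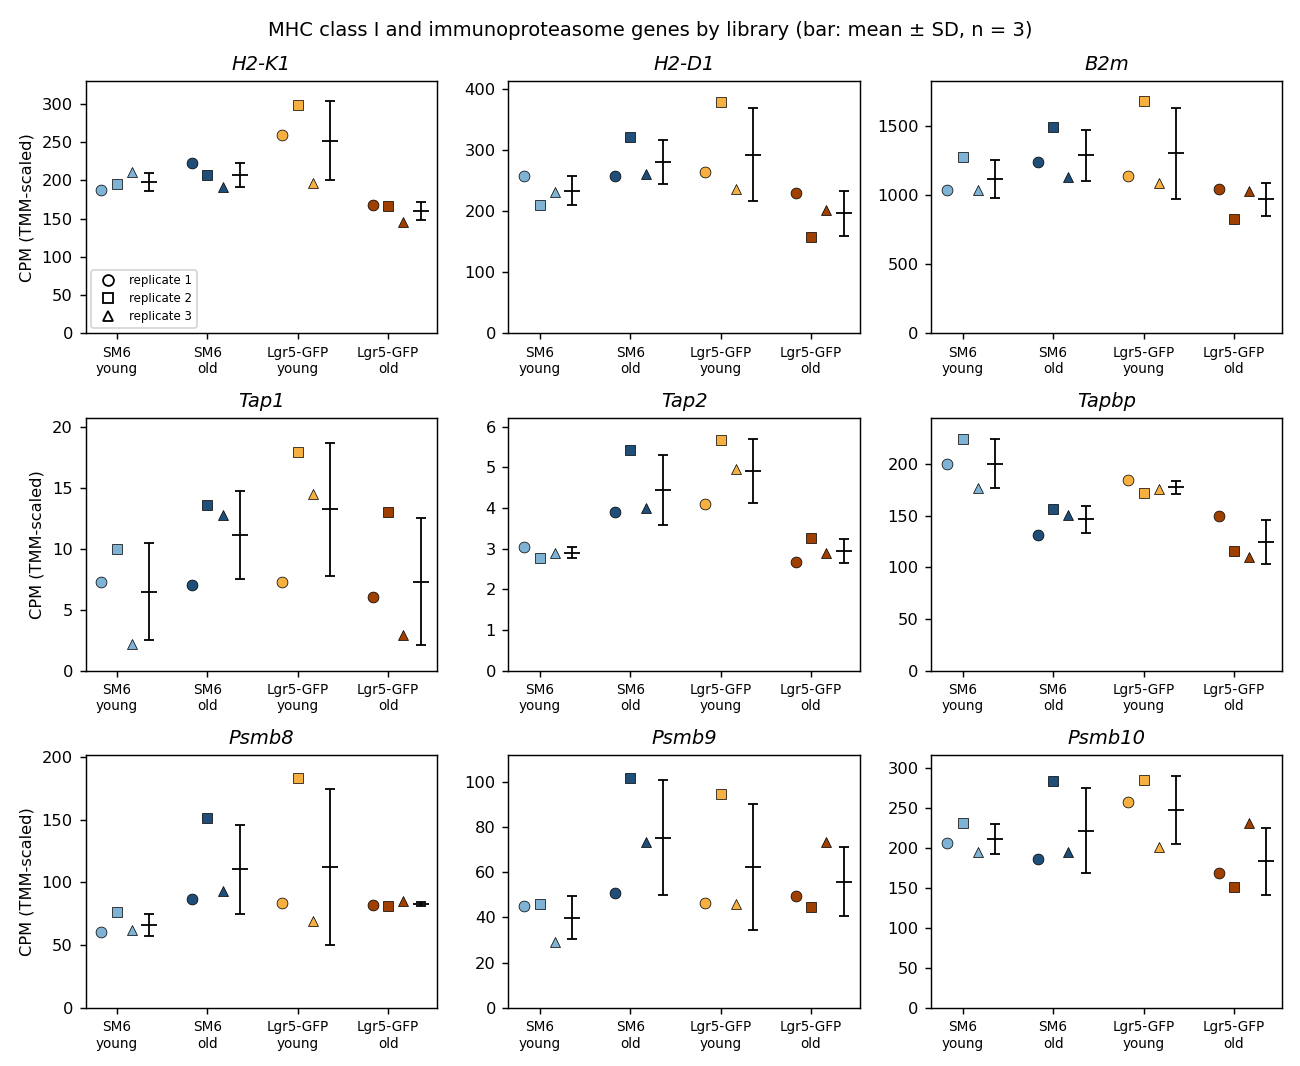
CPM on scaled totals (y axis, from 0) of 9 members in each library, grouped on the x axis, with symbols for replicate 1 to 3 and a bar for the mean ± SD of 3 libraries. Tapbp is lower in old than in young in both isolations, and Lgr5-GFP young replicate 2 is the highest of the 12 libraries for H2-K1, H2-D1, B2m, Tap1, Tap2, Psmb8 and Psmb10.

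H2-K1, a classical heavy chain, differed little between young and old in SM6 and lay lower in old than in young Lgr5-GFP mice, without being called in either. In SM6 it was at 188, 196 and 210.3 CPM in young (replicates 1 to 3) and 223, 207 and 191 CPM in old. In Lgr5-GFP it was at 259, 299 and 197 CPM in young and 168, 166 and 146 CPM in old. The SM6 groups overlap, whereas every old Lgr5-GFP library lies below every young one. The log2 fold change of old against young was 0.07 ± 0.17 (SE) in SM6 and -0.64 ± 0.17 in Lgr5-GFP, with adjusted p of 0.931 and 0.0927 by edgeR's quasi-likelihood test over 13368 genes. It was called in Lgr5-GFP without Lgr5-GFP young replicate 3 (-0.79, adjusted p = 0.0333), with no filter on low counts (-0.66, adjusted p = 0.0325) and with DESeq2 (-0.63, adjusted p = 0.0274), and adjusted p ran from 0.0274 to 0.453 over the alternatives that kept all libraries.

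H2-D1, the other classical heavy chain, had an old group above the young one in SM6 and below it in Lgr5-GFP. In SM6 it was at 257.9, 211 and 232 CPM in young and 258.0, 321 and 261 CPM in old. The Lgr5-GFP libraries gave 264, 378 and 236 CPM in young and 229, 157 and 203 CPM in old. The groups do not overlap in either isolation, although in SM6 the highest young and the lowest old library differ by less than 1 CPM. The log2 fold change was 0.26 ± 0.19 in SM6 (adjusted p = 0.624, edgeR) and -0.56 ± 0.19 in Lgr5-GFP (adjusted p = 0.259), and neither passed. Without SM6 old replicate 2 the SM6 value was 0.15, and without Lgr5-GFP young replicate 2 the Lgr5-GFP value was -0.34.

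B2m, the light chain that every class I heavy chain needs, varied in the same way. In SM6 it was at 1035, 1277 and 1034 CPM in young and 1239, 1489 and 1130.4 CPM in old. Lgr5-GFP libraries held 1137, 1678 and 1088 CPM in young and 1046, 830.2 and 1032 CPM in old. The SM6 groups overlap and the Lgr5-GFP groups do not. Old against young gave a log2 fold change of 0.21 ± 0.18 in SM6 (adjusted p = 0.713, edgeR) and -0.42 ± 0.18 in Lgr5-GFP (adjusted p = 0.441). The former was 0.09 without SM6 old replicate 2, and the latter -0.20 without Lgr5-GFP young replicate 2.

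Tap1 and Tap2 encode the subunits of the transporter that brings peptides to class I, and both were thinly counted, with 183 and 74 counts in all 12 libraries. Tap1 was at 7.28, 9.98 and 2.17 CPM in SM6 young and at 7.01, 13.6 and 12.8 CPM in SM6 old. It was at 7.25, 18.0 and 14.5 CPM in Lgr5-GFP young and at 6.0, 13.0 and 2.89 CPM in Lgr5-GFP old, so young and old overlap in both isolations. Its log2 fold change was 0.65 ± 0.47 in SM6 (adjusted p = 0.623, edgeR) and -0.69 ± 0.47 in Lgr5-GFP (adjusted p = 0.684). Neither passed, and the values ran from 0.33 to 1.02 in SM6 and from -1.25 to -0.39 in Lgr5-GFP over the fits without 1 library.

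Tap2 was at 3.03, 2.77 and 2.89 CPM in SM6 young and at 3.90, 5.43 and 3.99 CPM in SM6 old. It was at 4.10, 5.67 and 4.97 CPM in Lgr5-GFP young and at 2.67, 3.25 and 2.89 CPM in Lgr5-GFP old. The groups do not overlap in either isolation, with the old group the higher one in SM6 and the lower one in Lgr5-GFP, but no library had more than 13 counts. Tap2 passed the filter on low counts in 4 libraries, the 3 of Lgr5-GFP young and SM6 old replicate 2, all of them in the group where it was the higher, so the lack of overlap supports nothing by itself. The log2 fold change was 0.46 ± 0.46 in SM6 (adjusted p = 0.753, edgeR) and -0.54 ± 0.46 in Lgr5-GFP (adjusted p = 0.779).

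Tapbp encodes tapasin, which bridges the transporter and the empty heavy chain and favours the binding of tightly held peptides. In SM6 it was at 199.6, 224 and 177 CPM in young and 132, 157 and 151 CPM in old. Among Lgr5-GFP libraries it reached 185, 172 and 176 CPM in young and 149, 115 and 109.9 CPM in old. Every old library lies below every young one within each isolation, which held in both isolations for 172 of the 13368 tested genes (1.29%). Old against young gave a log2 fold change of -0.45 ± 0.17 in SM6 (adjusted p = 0.193, edgeR) and -0.50 ± 0.17 in Lgr5-GFP (adjusted p = 0.250). On average over both isolations it was -0.47 ± 0.12, a level in old ISCs of 0.720 times that in young ISCs, and this passed (adjusted p = 0.0248). The age effects of the isolations differed by -0.05, with a 95% interval from -0.53 to 0.43.

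The call for Tapbp lay near the threshold. It was lost without SM6 young replicate 2 (-0.43, adjusted p = 0.0904, edgeR), SM6 old replicate 1 (-0.43, 0.102), Lgr5-GFP young replicate 1 (-0.46, 0.0605), Lgr5-GFP old replicate 2 (-0.45, 0.0543) or Lgr5-GFP old replicate 3 (-0.43, 0.0786), and with library totals unscaled (-0.45, 0.121). It held in the other 8 alternatives with all libraries and in 7 of 12 with 1 library left out. The summed level of the 12 stem cell markers moved with it: 14614 to 18058 CPM in SM6 young against 9608 to 10849 in SM6 old, and 14719 to 16044 CPM in Lgr5-GFP young against 12035 to 13551 in Lgr5-GFP old. The part of these markers in the result was not tested. In sorted bulk cells, fewer cells that express a gene and less RNA of it per cell cannot be told apart.

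**Figure D2:**
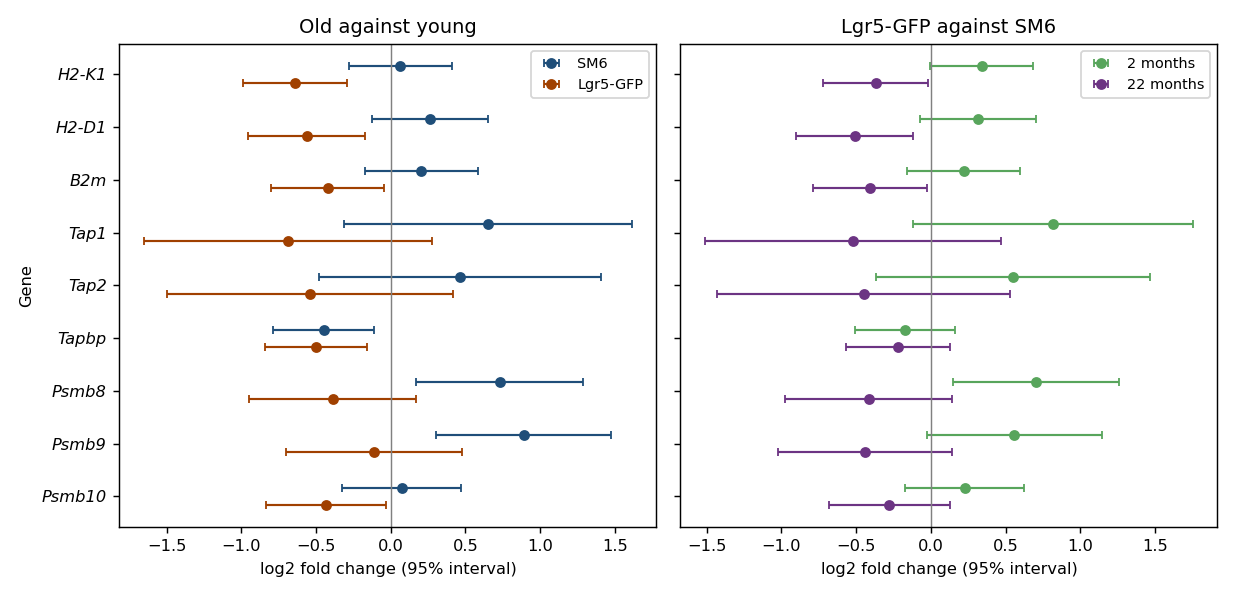
Log2 fold changes with 95% intervals (x axis) of 9 members (y axis), old against young in each isolation on the left and Lgr5-GFP against SM6 at each age on the right. On the left, Tapbp lies below 0 in both isolations (-0.45 and -0.50), while the other 8 lie above 0 in SM6 and below 0 in Lgr5-GFP.

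Psmb8, which replaces the chymotrypsin-like subunit Psmb5 in the immunoproteasome, was at 60.1, 76.5 and 62.1 CPM in SM6 young and at 86.5, 151 and 93.5 CPM in SM6 old. For Lgr5-GFP the values were 83.8, 183 and 69.5 CPM in young and 82.0, 81.3 and 84.9 CPM in old. The SM6 groups do not overlap, with old above young, and the old Lgr5-GFP libraries lie within the range of the young ones. The log2 fold change was 0.73 ± 0.27 in SM6 (adjusted p = 0.200, edgeR) and -0.39 ± 0.27 in Lgr5-GFP (adjusted p = 0.694). The value in Lgr5-GFP turned to 0.10 without Lgr5-GFP young replicate 2, and that in SM6 was 0.43 without SM6 old replicate 2.

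Psmb9, the counterpart of the caspase-like subunit Psmb6, was at 44.9, 46.0 and 28.9 CPM in SM6 young and at 50.7, 102 and 73.5 CPM in SM6 old. In Lgr5-GFP it was at 46.3, 94.5 and 45.9 CPM in young and 49.3, 44.7 and 73.3 CPM in old. Old again lies above young without overlap in SM6, and the Lgr5-GFP groups overlap. Old against young gave a log2 fold change of 0.89 ± 0.28 in SM6 (adjusted p = 0.111, edgeR) and -0.11 ± 0.28 in Lgr5-GFP (adjusted p = 0.953). Without Lgr5-GFP young replicate 2 the Lgr5-GFP value was 0.26, without Lgr5-GFP old replicate 2 it was 0.02, and without SM6 old replicate 2 the SM6 value was 0.61. With no filter on low counts, Psmb8 (adjusted p = 0.0176) and Psmb9 (adjusted p = 0.00494) were called in SM6, and their adjusted p reached 0.342 and 0.254 over the other alternatives that kept all libraries, and 0.649 and 0.483 without SM6 old replicate 2.

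Psmb10, the counterpart of the trypsin-like subunit Psmb7, differed little with age in SM6. It was at 206, 231 and 195 CPM in SM6 young and at 186, 283 and 195 CPM in SM6 old. The Lgr5-GFP libraries gave 257, 285 and 201 CPM in young and 169, 150.4 and 230.5 CPM in old. Young and old overlap in both isolations. The log2 fold change was 0.07 ± 0.19 in SM6 (adjusted p = 0.935, edgeR), -0.14 without SM6 old replicate 2, and -0.43 ± 0.19 in Lgr5-GFP (adjusted p = 0.470).

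The constitutive subunits were read beside their counterparts, and none of the 3 was called in any comparison. Psmb5 was at 16.6 to 29.1 CPM in SM6 young and 11.2 to 21.7 CPM in SM6 old, a log2 fold change of -0.60 ± 0.29 (unadjusted p = 0.0473, adjusted p = 0.373 by edgeR). Psmb6 ran from 372 to 487 CPM over the 12 libraries, and Psmb7 from 0 to 4.85 CPM. Because 3′ counts depend on each transcript's end, the low Psmb7 values do not show how much of its RNA the cells held. The ratio of Psmb8 to Psmb5 CPM was 2.06, 2.65 and 3.74 in SM6 young and 5.84, 6.97 and 8.36 in SM6 old. The Lgr5-GFP ratios were 4.51, 10.2 and 4.10 for young and 4.24, 3.45 and 3.14 for old. The ratio was thus higher in every old than in every young SM6 library, while the Lgr5-GFP groups overlap. It is a description without a test, and since 3′ counts depend on each transcript's end, it compares libraries and not the subunits themselves.

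Nlrc5, a transactivator of class I genes, was counted in 2 of the 12 libraries, with 7 counts in SM6 young replicate 2 and 3 counts in Lgr5-GFP young replicate 2. The other 10 libraries were at 0, which allows up to 3 counts in each, so no fold change is given. These libraries were also those with the highest summed levels of the 27 immune cell markers, 115 and 105 CPM, where the others ran from 55.3 to 101, and this rests on Gzma and Ccl5: without them the sums were 69.8 and 63.3 CPM, within the range of the others (45.5 to 90.1). Gzma and Ccl5, genes of cytotoxic lymphocytes, had 30 and 52 counts in SM6 young replicate 2, and 31 and 13 counts in Lgr5-GFP young replicate 2. On the CPM scale these are 16.6 and 28.8, and 29.3 and 12.3, where the other 10 libraries ran from 0 to 10.3 for Gzma and from 0 to 7.79 for Ccl5. The part of such cells in the Nlrc5 counts was not tested.

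Over the members, 0 of 10 were called in SM6, where 2.42% of all tested genes were called, and 0 of 10 in Lgr5-GFP, where 0.471% were. On average over both isolations 1 was called lower, against 2.06% of all genes, and for the difference of the age effects 0 were called, against 0.658%. At an unadjusted p under 0.05, 2 members were higher in SM6 (Psmb8 and Psmb9; 5.45% of all genes) and 1 lower (Tapbp; 7.68%). In Lgr5-GFP, 5 were lower (H2-K1, H2-D1, B2m, Tapbp and Psmb10; 5.84% of all genes) and 0 higher. These counts rest on few libraries: without SM6 old replicate 2 the count in SM6 fell to 1 of 10, and without Lgr5-GFP young replicate 2 that in Lgr5-GFP fell to 2 of 10. The Lgr5-GFP count was 3 of 10 when the log2 share of defensin (Paneth cell) counts entered the fit as a covariate, and 1 of 10 with library totals unscaled. With no filter on low counts, the counts rose to 4 of 10 in SM6 and 6 of 10 in Lgr5-GFP.

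The median log2 fold change of the 9 members other than Nlrc5 was 0.26 in SM6 and -0.50 in Lgr5-GFP, beside medians over all tested genes of -0.01 and -0.03. With Nlrc5 at its fitted value the medians were 0.23 and -0.52. Young and old did not overlap for 4 members higher in SM6 (7.74% of all genes), 1 lower in SM6 (9.78%) and 5 lower in Lgr5-GFP (7.95%). Without Tap2 these counts were 3, 1 and 4, and the medians 0.23 and -0.46. The comparisons of age share no libraries between the isolations, so the opposite signs were measured on separate mice. For the 9 members, 8 values lay above 0 in SM6 and 9 below 0 in Lgr5-GFP, where 49.1% and 53.5% of all genes did. Tap2, which passed the filter through its higher groups alone, is in both counts. With library totals unscaled, which moved the median of all genes to -0.15 in SM6 and 0.15 in Lgr5-GFP, H2-K1 and Psmb10 lay below 0 in SM6 and Psmb9 above 0 in Lgr5-GFP, and relative to those medians they kept their signs (0.07, 0.08 and -0.08).

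A test of the difference itself took the age effect in Lgr5-GFP less that in SM6. Its log2 value was -0.71 ± 0.24 for H2-K1 (adjusted p = 0.293, edgeR), -0.82 ± 0.27 for H2-D1 (0.258), -0.63 ± 0.26 for B2m (0.443), -1.12 ± 0.38 for Psmb8 (0.307) and -1.0 ± 0.40 for Psmb9 (0.421). These 5 had an unadjusted p under 0.05, where 5.18% of all genes did with a value below 0. Tap1 (-1.34 ± 0.66, adjusted p = 0.535), Tap2 (-1.0 ± 0.65, 0.678) and Psmb10 (-0.50 ± 0.27, 0.576) had values on the same side with intervals that include 0. All 9 values lay below 0, as for 49.6% of all genes, and their median was -0.82, beside 0.0050 over all genes. The 9 include Tap2, which passed the filter in the higher group of each isolation alone, and without Tap2 the median was -0.77. The count of 5 was 0 with library totals unscaled and 3 without Lgr5-GFP young replicate 2, without SM6 old replicate 2 or without SM6 young replicate 3. It was 7 with no filter on low counts, with limma voom or without SM6 old replicate 1. With no filter on low counts Psmb8 was called (adjusted p = 0.00982, edgeR).

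**Figure D3:**
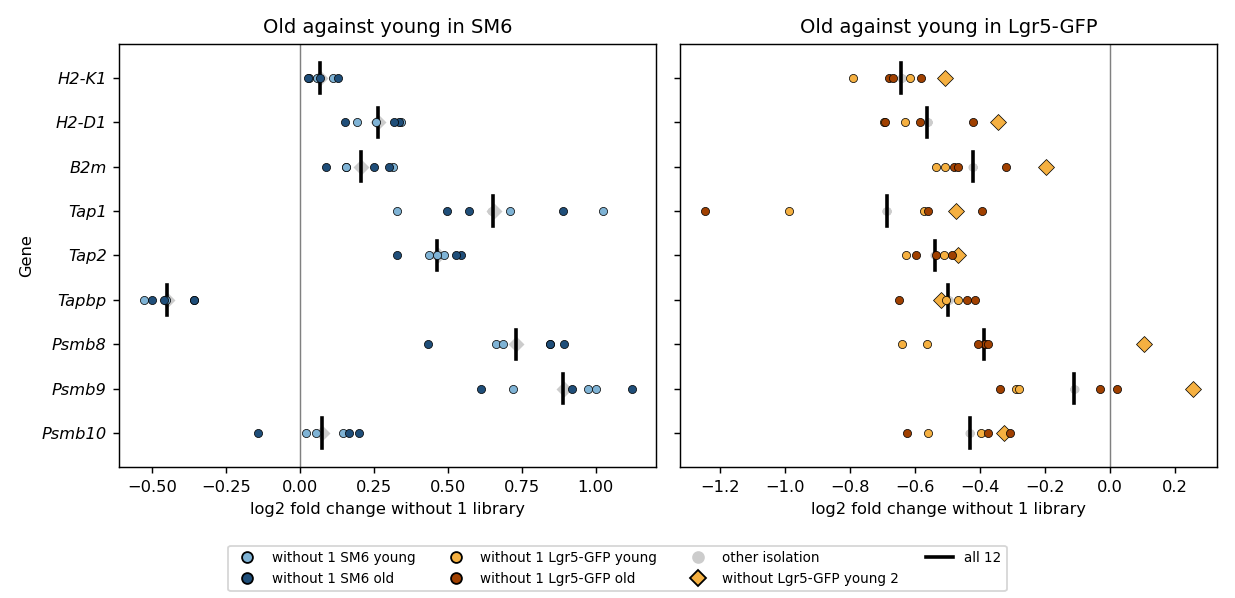
Log2 fold change of old against young (x axis) for 9 members (y axis) in SM6 (left) and Lgr5-GFP (right), refitted without each library in turn, with a black bar for the fit to all 12 and colours for the group of the library left out. Without Lgr5-GFP young replicate 2 (diamond), Psmb8 and Psmb9 move from below 0 to 0.10 and 0.26 in Lgr5-GFP, while Tapbp stays below 0 throughout in both isolations.

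The isolations were also compared at each age. At 2 months 8 of the 9 values lay above 0, as for 48.9% of all genes. In this comparison 0 of 10 were called (0.0898% of all genes were), and Psmb8, with a log2 difference of 0.70 ± 0.27, was the member with an unadjusted p under 0.05 (0.0154, adjusted p = 0.545 by edgeR), where 3.67% of all genes were so on the higher side. Tap2, which at this age passed the filter in Lgr5-GFP alone, was the member with no overlap, 0.55 ± 0.44 higher in Lgr5-GFP (6.38% of all genes). Without Lgr5-GFP young replicate 2 the value of Psmb8 was 0.21 and no member had an unadjusted p under 0.05, as was also the case without SM6 young replicate 1, while without Lgr5-GFP young replicate 3 the count was 4. The median over 9 members was 0.34, and 0.33 without Tap2.

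At 22 months 0 of 10 members were called (0.718% of all genes were), and all 9 fitted values lay below 0, as for 49.9% of all genes. The 9 include Tap2, which at this age passed the filter in SM6 old replicate 2 alone. H2-K1 (-0.37 ± 0.17, adjusted p = 0.503 by edgeR), H2-D1 (-0.51 ± 0.19, 0.360) and B2m (-0.41 ± 0.18, 0.482) had an unadjusted p under 0.05 (5.56% of all genes on the lower side). These 3 did not overlap, nor did Tap2 (-0.45 ± 0.47) and Psmb8 (-0.42 ± 0.27), which makes 5 members, or 4 without Tap2, with every Lgr5-GFP library below every SM6 library, against 7.41% of all genes. Without SM6 old replicate 2, without Lgr5-GFP old replicate 2 or with library totals unscaled, no member had an unadjusted p under 0.05, and without SM6 old replicate 2 the value of Psmb8 was -0.12. With no filter on low counts, 5 members had an unadjusted p under 0.05. Each old and young group serves in both an age and an isolation comparison, so these values are not independent of those by age.

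By mean level, Lgr5-GFP young was the highest group for 7 of the 9 members with a fold change, SM6 old for Psmb9 and SM6 young for Tapbp. That count of 7 fell to 3 without Lgr5-GFP young replicate 2, when SM6 old was highest for H2-D1, B2m, Tap1, Psmb8 and Psmb9, and ran from 5 to 8 when each of the other libraries was left out in turn. For H2-K1 the order was Lgr5-GFP young (252 ± 51.5 CPM, SD, n = 3), SM6 old (207 ± 16), SM6 young (198 ± 11.6) and Lgr5-GFP old (160 ± 12.3), where the first 3 overlap and the last does not overlap any of them. For Tapbp it was SM6 young (200.4 ± 23.7 CPM), Lgr5-GFP young (177 ± 6.49), SM6 old (146 ± 13.1) and Lgr5-GFP old (125 ± 21.3), with overlap within the young pair and within the old pair. For Psmb9 it was SM6 old (75.3 ± 25.6 CPM), Lgr5-GFP young (62.3 ± 27.9), Lgr5-GFP old (55.8 ± 15.3) and SM6 young (39.9 ± 9.57), where each group overlaps its neighbour.

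Lgr5-GFP young replicate 2 was the highest of 12 libraries for 7 of the 10 members, and at 172 CPM the lowest young library for Tapbp, while SM6 young replicate 2 was highest for 2 and SM6 old replicate 2 for 1. Its sum of H2-K1, H2-D1 and B2m was 2355 CPM, where the other libraries ran from 1153 to 2017, and its sum of Psmb8, Psmb9 and Psmb10 was 562 CPM, where the others ran from 276 to 536. It also had 686 CPM of Cd74, the invariant chain that escorts class II, and 1378 CPM of Cd74, H2-Aa, H2-Ab1 and H2-Eb1 together, where the others ran from 39.0 to 540.0. Its immune marker sum (105 CPM) was below that of SM6 young replicate 2 (115) and near that of Lgr5-GFP young replicate 1 (101).

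**Figure D4:**
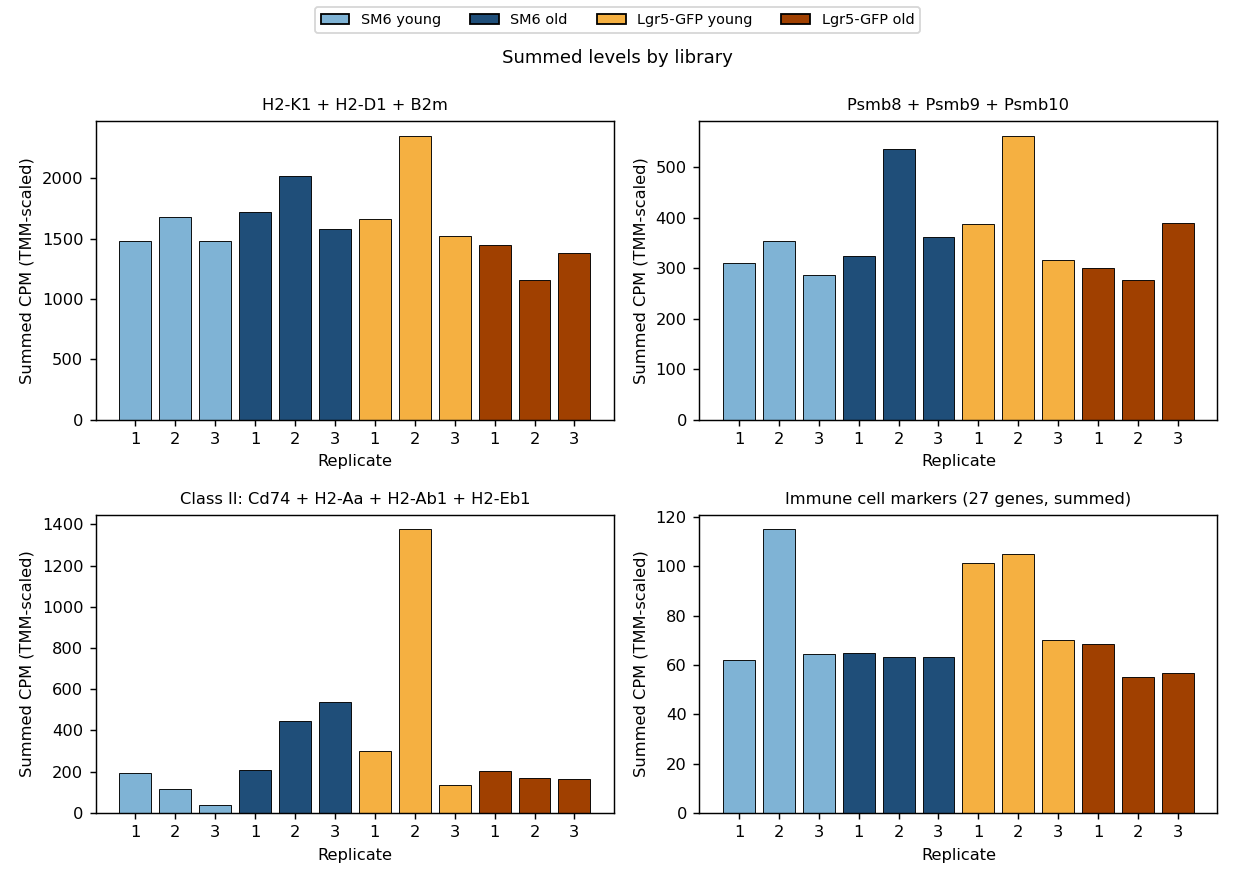
Summed CPM on scaled totals (y axes, from 0) in each library (x axes, replicate 1 to 3 of each group) of the heavy chains with B2m, the immunoproteasome subunits, 4 class II genes and 27 immune cell markers. Lgr5-GFP young replicate 2 has the tallest bar in the first 3 panels (2355, 562 and 1378 CPM), and SM6 young replicate 2 in the immune panel (115 CPM).

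Class II genes had age values of the same signs as most members, above 0 in SM6 and below 0 in Lgr5-GFP for all 7 tested of the 10 listed. Cd74 was at 71.6, 58.8 and 19.5 CPM in SM6 young and at 123, 244 and 304 CPM in SM6 old, a log2 fold change of 2.12 ± 0.52 that passed (adjusted p = 0.0267, edgeR). Lgr5-GFP libraries held 167, 686 and 73.3 CPM in young and 123, 90.3 and 93.5 CPM in old (-1.54 ± 0.50, adjusted p = 0.237), and the difference of the age effects was called (-3.66 ± 0.72, adjusted p = 0.0128). The SM6 call for Cd74 was lost without SM6 young replicate 2 (adjusted p = 0.0925, edgeR), SM6 young replicate 3 (0.141), SM6 old replicate 2 (0.0929) or SM6 old replicate 3 (0.0687), with DESeq2 (0.102), with the robust fit (0.329) and with a defensin covariate (0.0985). Without Lgr5-GFP young replicate 2 the Lgr5-GFP value was -0.24, and without Lgr5-GFP young replicate 3 it was -2.02 and was called (adjusted p = 0.0288, edgeR). The difference kept its call without each library in turn and lost it with DESeq2 (0.0626), limma voom (0.0672), the robust fit (0.379) and the defensin covariate (0.607).

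Markers of other epithelial cells differed between the groups as well. Of 7 goblet cell markers, 5 were called higher in old SM6 mice and 0 were called in Lgr5-GFP, and their sum was 5705 to 9116 CPM in SM6 young, 17307 to 18224 in SM6 old, 5298 to 13740 in Lgr5-GFP young and 3153 to 5495 in Lgr5-GFP old. Of 10 enterocyte markers, 5 were called higher in old SM6 mice and 3 lower in old Lgr5-GFP mice, and their sum was 1550 to 1695 CPM, 2236 to 8828, 1369 to 2640 and 1667 to 11499 in the same order of groups. The summed level of 12 Paneth cell markers was 13064 to 88352 CPM in SM6 young, 54456 to 331982 in SM6 old, 57661 to 319254 in Lgr5-GFP young and 22932 to 39156 in Lgr5-GFP old, with all 12 detected. Of these 12, 2 were called higher in SM6 and 3 lower in Lgr5-GFP, and all 12 had a fitted age value above 0 in SM6 and below 0 in Lgr5-GFP. Those are the signs seen for 8 of the 9 members with a fold change, and they were not particular to Paneth cells. The counts above 0 in SM6 and below 0 in Lgr5-GFP were 7 and 6 of 7 goblet and 9 and 8 of 10 enterocyte markers. They were 8 and 7 of 8 enteroendocrine, 3 and 4 of 5 tuft, and 1 and 11 of 12 stem cell markers. For the difference of the age effects, 12 of 12 Paneth, 6 of 10 enterocyte, 3 of 7 goblet and 1 of 8 enteroendocrine cell markers were called lower. Enteroendocrine markers summed to 732 to 1320 CPM in SM6 young, 1015 to 3125 in SM6 old, 134 to 292 in Lgr5-GFP young and 72.3 to 159 in Lgr5-GFP old. At 22 months, 6 of 8 enteroendocrine, 6 of 7 goblet, 6 of 10 enterocyte and 1 of 12 Paneth cell markers were called lower in Lgr5-GFP than in SM6 (0.718% of all genes were called). With the share of defensin counts as a covariate, the counts of called members were 0 in SM6, 0 in Lgr5-GFP, 1 on average and 0 for the difference, where 2.11%, 0.209%, 2.76% and 0.254% of all genes were called, and Tapbp was at -0.46 on average (adjusted p = 0.0348, edgeR). Summed immune markers ran from 61.9 to 115 CPM in SM6 young, 63.1 to 64.7 in SM6 old, 70.0 to 105 in Lgr5-GFP young and 55.3 to 68.6 in Lgr5-GFP old. The part of these cells in the members' levels was not tested.

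The wider class I pathway was read from a list of 62 further genes, of which 54 were tested, and 0 of 54 were called in each of the 6 comparisons, where 0.0898% to 2.66% of all genes were. At an unadjusted p under 0.05, 2 were higher and 5 lower with age in SM6 (5.45% and 7.68% of all genes), and 0 higher and 6 lower in Lgr5-GFP (3.95% and 5.84%). For the average age effect these counts were 1 and 7 (4.79% and 8.02%), and for the difference of the age effects 2 and 7 (4.25% and 5.18%). Median log2 fold changes of the 54 were -0.02 in SM6 and -0.15 in Lgr5-GFP. Of the 18 heavy chains beyond H2-K1 and H2-D1, 11 were tested, and H2-M2, H2-M5 and H2-M10.1 were at 0 in every library.

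Irf1, an interferon-induced activator of class I and immunoproteasome genes, was at 42.5, 54.9 and 53.5 CPM in SM6 young and at 53.8, 71.3 and 53.5 CPM in SM6 old. Among Lgr5-GFP libraries it reached 65.2, 100.2 and 48.0 CPM in young and 35.3, 48.0 and 55 CPM in old. Both pairs of groups overlap, with log2 fold changes of 0.24 ± 0.24 (adjusted p = 0.751, edgeR) and -0.59 ± 0.24 (adjusted p = 0.406) and a difference of -0.83 ± 0.34 (adjusted p = 0.436). Rfx5, a subunit of the complex that binds the X box of class I and class II promoters, was at 0 to 3.86 CPM and was not tested.

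Genes whose pattern over the 12 libraries was most like the mean standardized level of the members were Dusp19, a phosphatase (Pearson r = 0.891, Spearman rho = 0.860), Zfp330 (0.879 and 0.867), Ebp, an enzyme of cholesterol synthesis (0.853 and 0.832), the splicing factor Rbm17 (0.853 and 0.762) and Psme2 (0.851 and 0.629), ranked among 13358 genes. These are descriptions over 12 libraries that share their scaling, and no p is given. Psme2, a subunit of the proteasome activator that works with the immunoproteasome, was the one of the 5 on the wider pathway list. It was at 192, 203 and 206 CPM in SM6 young and at 214, 267 and 227 CPM in SM6 old, and in Lgr5-GFP at 189, 303 and 199.9 CPM in young mice and 218, 165 and 184 CPM in old mice.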

How the data were processed

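Expression was measured in 12 3′ libraries from sorted ISCs of individual mice. STAR 2.4.2a (alignment to GRCm38) and featureCounts (exons of GENCODE vM15) were used by the authors, and the deposited values are counts without scaling, from 970472 to 3815425 per library. Reads carried molecular identifiers. Whether duplicates were merged is not stated. Floors for counts of 0 cover counting error alone, while SEs and 95% intervals of fold changes come from the fit and hold the spread between mice. All 12 value columns were used, and groups came from sample titles.

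A quasi-likelihood model in edgeR 4.0.16 (R 4.3.3) gave each group its own mean, over all 12 libraries and the 13368 genes that passed the study's filter (over 5 reads and 1 CPM or more in any library), with totals scaled by TMM, the trimmed mean of M values. CPM uses these totals. Tests were two-sided, Benjamini-Hochberg adjustment ran over all 13368 genes, and called means an adjusted p under 0.05. SE is the log2 fold change over the root of its F statistic. The study tested expression on other libraries only. Alternatives were other scalings and filters, DESeq2 1.42.0, limma 3.58.1 (voom), a replicate block, the log2 defensin share as covariate and each library left out. Code was tested on simulated data. Python 3.11.15 with matplotlib 3.10.9 drew the plots.

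The members and all gene lists were chosen with earlier results of these data known. Named were all members, Psmb5, Psmb6, Psmb7, Irf1 and Rfx5 whatever they did (1 further gene of this rule is not reported here, whatever its values), any called gene of the wider list, and the 5 genes most like the members by Pearson r of log2 CPM (prior count 2). Gzma, Ccl5, Cd74 and the values of Psme2 were chosen after they were seen, as were the alternatives read for Cd74, for the order of the groups, without Tap2 and without Gzma and Ccl5.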

Additional observations from a re-analysis of the deposited data

Results flagged for a closer look

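For H2-D1 and Tap2, every old SM6 library lay above every young one and every old Lgr5-GFP library lay below every young one. Testing the age effect in Lgr5-GFP less that in SM6 gave a log2 value of -0.82 for H2-D1 (adjusted p = 0.258 by edgeR) and of -1.0 for Tap2 (adjusted p = 0.678), and neither passed. Tap2 had at most 13 counts in a library and passed the filter on low counts in 4 libraries, all in the higher group of their isolation, so its lack of overlap supports nothing by itself, and in SM6 the nearest young and old libraries of H2-D1 were at 257.9 and 258.0 CPM.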

How the results depend on the processing

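Of 1164 member values under an alternative, 1127 kept their direction and their side of the threshold, 25 changed sign, 6 lost and 6 gained a call. Since 1 member value was called with the main settings, most values had no call to lose. Many fits also left out a library from outside the comparison, so the count of 1127 does not measure how firm the values are. With no filter on low counts, 2 members were called in SM6 (Psmb8 and Psmb9; 2.55% of 23621 genes), 1 in Lgr5-GFP (H2-K1; 1.16%) and 1 for the difference of the age effects (Psmb8; 0.948%), and with DESeq2 1 in Lgr5-GFP (H2-K1; 0.636% of 13368 genes). With library totals unscaled, 0 were called on average, and the median over all genes moved to -0.15 in SM6, 0.15 in Lgr5-GFP and 0.32 for the difference. Under this scaling H2-K1 (-0.080) and Psmb10 (-0.067) in SM6, Psmb9 in Lgr5-GFP (0.066) and Tapbp for the difference (0.30) changed sign, and relative to these medians H2-K1 was at 0.07, Psmb10 at 0.08, Psmb9 at -0.08 and Tapbp at -0.03. The defensin covariate turned Psmb9 in Lgr5-GFP to 0.11 and Tapbp for the difference to 0.052, and limma voom turned the latter to 0.033. The cause was not tested. With 1 library left out, the count of called members ran from 0 to 1 in Lgr5-GFP (0 with all libraries) and from 0 to 1 on average (1 with all libraries, held in 7 of 12 fits), with 0 in SM6, for the difference and at either age. Values that changed sign ranged from -0.14 to 0.20 for Psmb10 in SM6, -0.64 to 0.10 for Psmb8 and -0.34 to 0.26 for Psmb9 in Lgr5-GFP, -0.30 to 0.17 for Tap1, -0.11 to 0.0030 for Tap2 and -0.17 to 0.0033 for B2m on average, -0.20 to 0.032 for Tapbp for the difference, and -0.0036 to 0.33 for B2m at 2 months. Same-numbered libraries did not deviate together (r from -0.07 to 0.05 over 18 pairs). This cannot exclude a shared batch, and the sample titles do not say whether the numbers pair the mice. Replicate 2 had the highest mean standardized level of the members in SM6 young, SM6 old and Lgr5-GFP young, and the lowest in Lgr5-GFP old. With the replicate block, 0, 0, 1, 0, 0 and 0 members were called in the 6 comparisons, and it changed no call. At an unadjusted p under 0.05 (edgeR), the block moved the count from 2 to 4 on average. It also moved the count from 5 to 6 for the difference and from 1 to 3 at 2 months. Fitting only the groups compared gave no value for the average and the difference. Depth was least for Tap1, Tap2 and Nlrc5, with 183, 74 and 10 counts in all 12 libraries.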
